A study of Mus musculus with 8 samples.

Results

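Chemoreceptor genes encode the G-protein-coupled receptors of smell, pheromone sensing and bitter taste. Open chromatin at them was described in mouse DN3 thymocytes, T-cell precursors that have begun to rearrange the T-cell receptor beta locus. The regions were found by merging the ATAC-seq peaks of 4 libraries, joining peaks that overlap by 1 bp or more. A merged region was kept when it overlapped the body, or the 5 kb on either side, of an autosomal protein-coding gene whose symbol begins with Olfr, Vmn1r, Vmn2r, Taar or Tas2r. This gave 284 regions of 176413 on the 19 autosomes, and 120333 regions lay at other protein-coding genes. The 1504 genes searched were 1103 Olfr, 229 Vmn1r, 122 Vmn2r, 15 Taar and 35 Tas2r genes.

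ATAC-seq inserts sequencing adapters into accessible DNA with a transposase, and a peak is a stretch where insertions exceed the local background. All 4 libraries came from C57BL/6 DN3 thymocytes, and the genotypes differ at NMe, the Notch-responsive enhancer of Myc. Both wild-type libraries have an unaltered NMe, and both mutant libraries are homozygous for changes at GATA site 1 and GATA site 2 of NMe. The labels give no age or sex and do not say whether the 2 libraries of a genotype came from separate animals, so the spread between them may be technical. The 4 leukaemia samples of the series were not analysed here. Peak lists hold no read counts, so depth is unknown, and a gene without a peak is one where none was called at the depth of that library. The lists held 165763 and 153032 autosomal peaks in wild type and 118238 and 116435 in the mutant, and median peak widths were 284 and 303 bp against 445 and 422 bp. In bulk chromatin, a site open in few cells and a site weakly open in many cannot be told apart.

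Olfactory receptors (Olfr) are expressed in the nose, where each mature sensory neuron settles on a single receptor gene and keeps the others in compact heterochromatin. Vmn1r and Vmn2r receptors sense pheromones in separate layers of the vomeronasal organ, most Taar receptors detect amines in the nose, and Tas2r receptors detect bitter compounds on the tongue. The genes lie in long tandem arrays, and Olfr arrays in particular are AT-rich. Taar1 is the Taar gene known mainly outside the nose.

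The cells' label was checked first. The promoters of 10 of 10 DN3 genes, among them Ptcra, Il2ra, Rag1, Rag2 and Bcl11b, held a peak in all 4 libraries. Such a peak is common, held by 65.4% of the 16457 autosomal protein-coding genes with a promoter window. Counts of open promoters therefore do not by themselves identify the cells. Of 8 mature olfactory neuron genes with an annotated promoter, Adcy3 and Gng13 held a peak in all 4 libraries, and Cnga4, Cngb1, Ano2, Stoml3, Gfy and Rtp2 held none in any. Of 4 vomeronasal genes, Gnao1 and Ano1 held a peak in all 4 libraries, Calr4 in wild type 1 alone and the channel gene Trpc2 in none. Of 7 taste cell genes, Trpm5, Plcb2, Itpr3 and Tas1r1 held a peak in all 4 libraries, and Gnat3, Tas1r2 and Tas1r3 in none. Regulators of receptor choice in olfactory neurons, many of which serve other tissues too, were mostly open. Lhx2, Emx2, Ldb1, Ebf3, Ebf4, Atf5, Kdm1a, Lbr and Cbx5 held a promoter peak in all 4 libraries, and Ebf1 held one in wild type 2 alone.

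A peak at a receptor promoter was rare. RefSeq gives a promoter window, 250 bases before to 50 after the annotated start, for 1302 of the 1504 genes, and 17 of these windows (1.31%) met a region. In 12 (0.922%) the region was called in all 4 libraries, against 65.4% of the 16457 autosomal protein-coding genes with such a window. The 17 were 15 Olfr genes, Vmn1r20 and Vmn2r29, and none of 11 Taar or 31 Tas2r windows met a region. The RefSeq starts of these genes are often start codons: 76.7% of the receptor windows have ATG exactly at the annotated start, against 2.84% of other windows. The true start of transcription may therefore lie further upstream, outside the window.

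The promoters of 4 genes are shown because, of receptor promoters, they meet the strongest regions called in all 4 libraries. Some of these windows meet their region only at the gene end. Olfr763 was added after its values were seen. They are RefSeq sequences of GRCm38.p6, read 5′ to 3′ on the strand of the gene. Capitals mark the motifs searched on both strands: GGAAGT for ETS factors, AGATAA for GATA factors, TGTGGT for RUNX factors, CAGCTG for E-box factors, TAATTA for homeodomain factors, TATAAA for the TATA box, and, for EBF factors, TCCC and GGGA spaced by any 2 bases. A match is a run of letters and not a shown binding site. Vmn2r29 is at chr7:7278240-7278539 (minus strand), Olfr1511 at chr14:52390722-52391021 (minus), Olfr1510 at chr14:52410878-52411177 (minus) and Olfr763 at chr10:129011037-129011336 (plus).
Vmn2r29: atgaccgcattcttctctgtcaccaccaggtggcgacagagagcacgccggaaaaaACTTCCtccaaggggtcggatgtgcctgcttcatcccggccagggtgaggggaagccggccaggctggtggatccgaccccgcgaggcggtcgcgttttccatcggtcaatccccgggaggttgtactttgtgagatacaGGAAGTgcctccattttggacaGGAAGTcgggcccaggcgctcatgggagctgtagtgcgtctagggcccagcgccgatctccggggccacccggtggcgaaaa
Olfr1511: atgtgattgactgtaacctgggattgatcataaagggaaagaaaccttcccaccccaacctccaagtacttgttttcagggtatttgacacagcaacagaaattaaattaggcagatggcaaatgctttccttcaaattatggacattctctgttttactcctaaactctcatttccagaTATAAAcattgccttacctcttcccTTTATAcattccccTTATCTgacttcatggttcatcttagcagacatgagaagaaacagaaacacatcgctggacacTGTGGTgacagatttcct
Olfr1510: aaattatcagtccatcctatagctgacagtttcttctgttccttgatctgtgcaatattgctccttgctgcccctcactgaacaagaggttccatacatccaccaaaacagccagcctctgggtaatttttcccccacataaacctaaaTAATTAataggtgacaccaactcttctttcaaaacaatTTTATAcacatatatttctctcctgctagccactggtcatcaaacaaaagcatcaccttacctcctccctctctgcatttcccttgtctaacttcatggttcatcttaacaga
Olfr763: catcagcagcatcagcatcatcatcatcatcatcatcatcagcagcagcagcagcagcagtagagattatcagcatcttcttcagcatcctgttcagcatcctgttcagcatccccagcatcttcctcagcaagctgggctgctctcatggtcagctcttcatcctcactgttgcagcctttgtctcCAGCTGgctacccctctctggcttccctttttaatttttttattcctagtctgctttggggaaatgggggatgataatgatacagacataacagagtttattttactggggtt

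The Vmn2r29 promoter is 62.3% GC with 23 CpG dinucleotides and 3 ETS matches, and its 300 bases lie wholly inside a region called in every library. The fold enrichment of that region, the authors' ratio of a library's pileup to its local background, was 9.56 and 10.1 in the wild-type lists and 8.59 and 10 in the mutant lists. Of the 17 windows that met a region, Olfr212 has the same GC content and 13 CpG, and the 3 others printed hold 0 or 1 CpG. Olfr1511 is 39.7% GC and has a pair of TATA-box matches, 1 GATA match and 1 RUNX match, and 96 of its bases lie in a region with fold values of 6.97 and 6.91 in wild type and 5.46 and 5.76 in the mutant. Its ATG follows the first 250 bases. The TATA-box match farther from the gene lies outside the stretch that meets the region, and the other marked matches lie inside it. Olfr1510 has 1 homeodomain and 1 TATA match but only 12 bases inside its region, and both matches lie outside it. Olfr763 opens with a run of short repeats of cat and cag, has 1 E-box match, and 39 of its bases at the gene end lie in a region with fold values of 9.04 and 7.99 in wild type and 7.34 and 7.17 in the mutant. The E-box match lies outside that region.

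Receptor promoters as a whole were AT-rich. The median GC content was 35.7% over 1307 receptor windows, 46.7% over the 17 that met a region and 35.7% over the 1290 others, against 57.7% over 18778 windows of other genes. The median CpG count was 1 in receptor windows and 15 in the others. AGATAA was present in 26.8% of receptor windows and 8.37% of other windows, TATAAA in 39.6% and 10.8%, and TAATTA in 16.6% and 3.63%. GGAAGT was present in 20.1% and 25.3%, TGTGGT in 19.1% and 14.5%, CAGCTG in 7.65% and 16.2%, and the EBF letters in 0.383% and 1.02%. Of the 17 windows that met a region, 4 held CAGCTG, 3 held TATAAA, 3 held TGTGGT, 2 held GGAAGT, 1 held AGATAA, 1 held TAATTA and 0 held the EBF letters. GGAAGT was present in 51.9% of the 206 Vmn1r windows and 15% of the 942 Olfr windows.

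Few receptor genes had any region. Of 1504 genes, 184 (12.2%, 95% exact binomial interval 10.6% to 14%) had 1 or more in the body or 5 kb flanks, against 85.3% of all 20560 autosomal protein-coding genes. In 109 genes (7.25%) a region was called in all 4 libraries. Receptor genes are short, with a median body of 951 bp, so they were also set beside the 1055 other genes with a body of up to 2 kb, of which 65.6% had a region. Neighbouring genes share windows and are not independent, and the intervals cover counting error only.

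In each library the peaks were sparse per unit of window. Wild type 1 and wild type 2 had 12.5 and 11.2 peaks per Mb of receptor window, and mutant 1 and mutant 2 had 8.51 and 8.61. Windows of other genes had 103, 95.3, 74.6 and 73.3 peaks per Mb in the same order. The density was thus 8.21, 8.55, 8.76 and 8.51 times lower, a mean log2 ratio of −3.09 ± 0.04 (SD, n = 4), and it was lower in 4 of 4 libraries. An exact two-sided sign-flip test gave p = 0.125, the smallest that 4 libraries allow, and 0.312 after Benjamini-Hochberg adjustment over the 5 tests made.

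**Figure D1:**
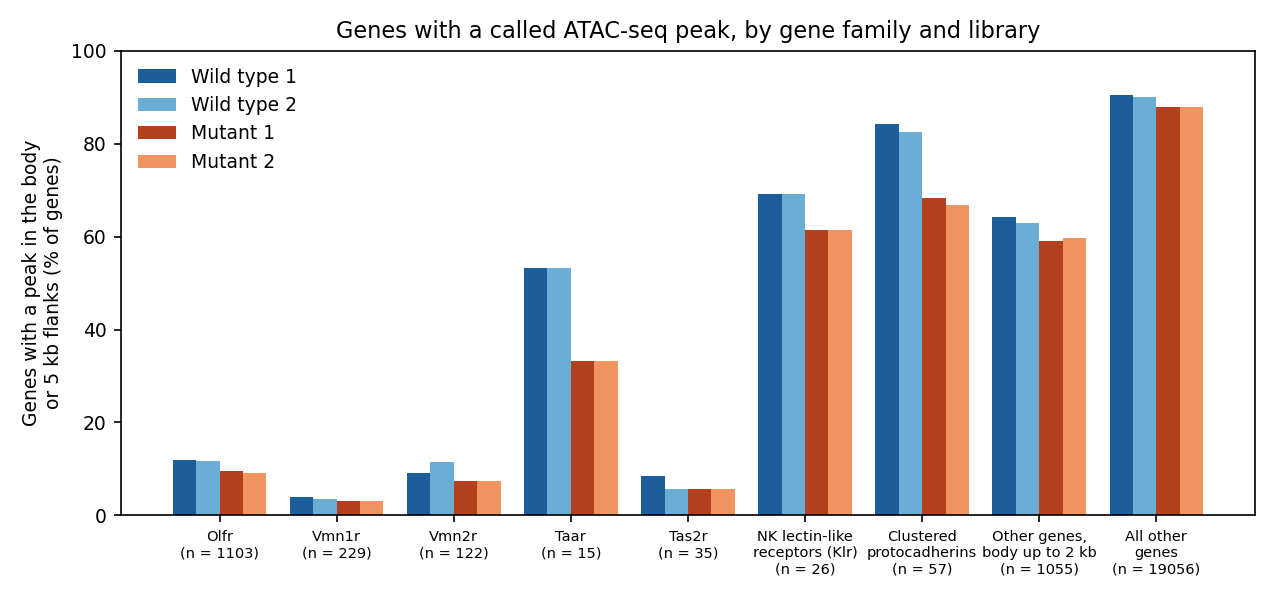
Percentage of autosomal protein-coding genes (y axis) of each family (x axis, n genes) with a called peak in the body or 5 kb flanks, 1 bar per library. Taar genes reached 53.3% in both wild-type libraries and 33.3% in both mutant libraries, and the other receptor families stayed at 12% or lower, below natural killer lectin-like receptors (Klr), clustered protocadherins and other genes. Protocadherin bodies overlap one another, so 1 peak can count for many of those genes.

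The families differed in how often they were marked. Regions were present at 147 of 1103 Olfr genes (13.3%), 10 of 229 Vmn1r genes (4.37%), 16 of 122 Vmn2r genes (13.1%), 8 of 15 Taar genes (53.3%, interval 26.6% to 78.7%) and 3 of 35 Tas2r genes (8.57%). Vmn2r bodies are long, at a median of 24640 bp, and per Mb of window the order was 78.7 regions for Taar, 18.5 for Olfr, 8.93 for Tas2r, 6.43 for Vmn1r and 4.54 for Vmn2r. Of other tandem gene arrays, natural killer lectin-like receptors (Klr), expressed on lymphocytes, had a region at 19 of 26 genes, and clustered protocadherins, neuronal adhesion proteins, at 50 of 57. Protocadherin bodies overlap one another, their windows covering 0.6614 Mb in all, so 1 region can count for many genes. Their bodies are longer, at medians of 14400 and 90250 bp, and per Mb of window they had 67.6 and 90.7 regions, on either side of the Taar value. The plot of genes by family gives these shares for each library.

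Where receptor peaks were called, their median fold lay close to that of peaks at other genes. It was 3.38, 3.52, 3.3 and 3.43 in wild type 1, wild type 2, mutant 1 and mutant 2, and at other genes 3.29, 3.23, 3.17 and 3.35. The log2 ratio averaged 0.06 ± 0.04 (SD, n = 4) and was above 0 in 4 of 4 libraries (exact two-sided sign-flip p = 0.125, adjusted 0.312). It turned to −0.03 when only peaks of fold 3 or more were used. Of the 284 regions, 143 (50.4%) were called in all 4 libraries, against 56.7% of all autosomal regions, and 75 (26.4%) in a single library, against 20.1% of the other autosomal regions.

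The regions lay on all sides of the genes. Of the 284, 90 overlapped a gene body, 76 lay upstream, 90 downstream, and 28 beside genes whose strand the reference tables do not give. At the edge of the 5 kb window, the outermost regions inside were at Olfr697 (4866 bp from the body, 4 libraries), Olfr1461 (4909 bp, 1 library) and Olfr550 (4911 bp, 4 libraries). Those just outside were near Olfr54 (5056 bp, 1 library), Olfr1344 (5065 bp, 4 libraries) and Olfr12 (5068 bp, 4 libraries). The bodies or 1 kb flanks of other protein-coding genes also met 19 of the regions, 14 of them called in all 4 libraries, while 129 of the other 265 were.

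**Figure D2:**
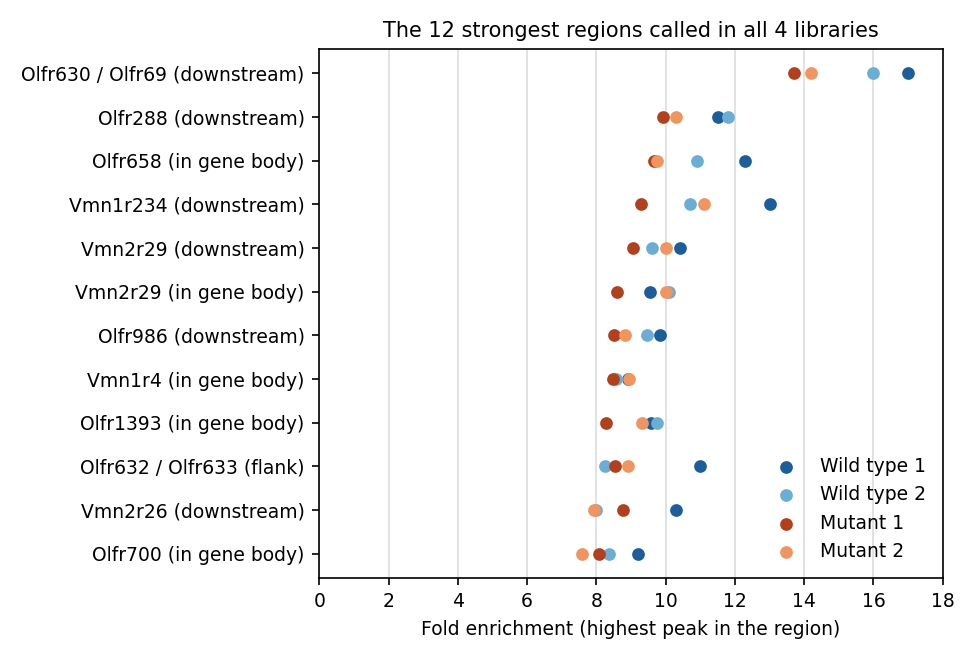
Fold enrichment (x axis, the authors' ratio to local background) of the highest peak in each of the 12 regions called in all 4 libraries with the highest lowest fold (y axis, receptor genes and side), 1 point per library. The region between Olfr630 and Olfr69 stands to the right of the other 11, at 13.7 to 17.

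The strongest regions called in all 4 libraries lay at Olfr, Vmn1r and Vmn2r genes. The highest lay downstream of Olfr69, within 5 kb of Olfr630 as well, at chr7:103762130-103763665, with fold values of 17 and 16 in the wild-type lists and 13.7 and 14.2 in the mutant lists. It is 48.9 kb from the beta-globin gene Hbb-bt, in the array of class I odorant receptors that surrounds the globins. Next were a region downstream of Olfr288 (chr15:98181077-98181781), with 11.5 and 11.8 in wild type and 9.91 and 10.3 in the mutant, and a region in the body of Olfr658 (chr7:104646826-104647610), with 12.3 and 10.9 against 9.66 and 9.75. The scale of a fold is set within each list, so values are given side by side and not compared across lists.

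Pheromone receptor genes held 5 of the 12. A region downstream of Vmn1r234 (chr17:21231625-21232206) had 13 and 10.7 in wild type and 9.29 and 11.1 in the mutant. Besides its promoter region, Vmn2r29 had a second at its far end (chr7:7209367-7210334), with 10.4 and 9.61 in wild type and 9.06 and 10 in the mutant, which is also at the zinc-finger gene Zfp772. Vmn1r4 (chr6:56923434-56924531) had 8.9 and 8.57 against 8.47 and 8.93. That region also lies at Nt5c3, which encodes a nucleotidase. The last, downstream of Vmn2r26 (chr6:124065357-124066151), had 10.3 and 7.98 in wild type and 8.76 and 7.92 in the mutant.

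The remaining regions of the 12 were at olfactory receptor genes. Olfr986 (chr9:40192019-40193101), where the region meets the zinc-finger gene Zfp202, had 9.84 and 9.46 in wild type and 8.5 and 8.82 in the mutant. Olfr1393 (chr11:49271120-49271744) had 9.57 and 9.75 against 8.28 and 9.33. Olfr632 and Olfr633 share a region (chr7:103942473-103943172) with 11 and 8.25 against 8.54 and 8.9, which is 89.3 kb from the embryonic globin gene Hbb-y. Olfr700 (chr7:106805498-106806339) closed the list at 9.21 and 8.36 against 8.08 and 7.58.

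By number of regions called in all 4 libraries, Vmn1r1 led with 4, its strongest reaching 8.08. Olfr633, Olfr1393, Olfr1507, Olfr314, Olfr524 and Olfr373 had 3 each, and no Taar, Tas2r or Vmn2r gene had more than 2. Some of these also lie in the body or 1 kb flank of a gene outside the families. All 3 of Olfr314 lie at Fam183b, all 3 of Olfr524 at Cd163l1, and some of Olfr1393 at Mgat1. Within those families and Vmn1r, examples with 2 were Taar6, Taar9, Vmn1r4 and Vmn2r29. The widest region, at Vmn1r238 on chromosome 18, ran for 4314 bp with low fold values of 2.63 and 4.49 in wild type and 2.43 and 2.7 in the mutant. The next widest were at Vmn2r129 (3224 bp), Olfr524 (3201 bp, also at Cd163l1), Olfr750 (2759 bp) and Olfr648 (2419 bp).

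The Taar cluster, 15 genes in 189.1 kb of chromosome 10, had 12 regions. Of these, 6 (50%) were called in all 4 libraries and 2 (16.7%) in both wild-type libraries alone. The shares over all autosomal regions were 56.7% and 11.3%. Taar6, a receptor of the olfactory Taar group, had a region downstream (chr10:23979207-23979772) with 8.89 and 8.01 in wild type and 6.02 and 5.22 in the mutant. A second one, upstream of Taar6 (chr10:23986288-23986920), had 5.62 and 4.76 against 6.01 and 4.82. The other 4 lay between Taar4 and Taar5, at Taar8a, between Taar8c and Taar9, and upstream of Taar9, and their lowest fold in any list was 3.46. The Taar4 and Taar5 region (chr10:23964987-23965414) had 7.19 and 7.45 in wild type and 4.48 and 4.47 in the mutant. Taar1 and 6 further genes of the cluster had no region. Among bitter receptors, Tas2r138 (chr6:40618096-40618227) had 4.57 and 4.02 against 3.57 and 3.47, and Tas2r126 (chr6:42433444-42433844) had 3.55 and 4.19 against 3.09 and 2.85. The third Tas2r region, at Tas2r109, was called in wild type 1 alone.

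Regions were frequent where receptor genes lie near other genes. Of 51 receptor genes with another protein-coding gene within 10 kb, 22 (43.1%, interval 29.3% to 57.8%) had a region, and 17 (33.3%) had one that touches no other gene. The share was 26.2% of 290 genes at 10 to 50 kb, 11% of 608 at 50 to 200 kb, 3.5% of 371 at 200 to 500 kb and 3.26% of 184 at 500 kb or more. Within each library the share fell from 31.4% to 43.1% in the nearest group to 2.17% to 2.72% in the farthest. From 200 to 500 kb to the farthest group it fell in wild type 2 alone, from 2.96% to 2.72%. In the other libraries it rose, at most from 1.62% to 2.72% in mutant 1. These are descriptions over genes that share arrays, with no test.

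**Figure D3:**
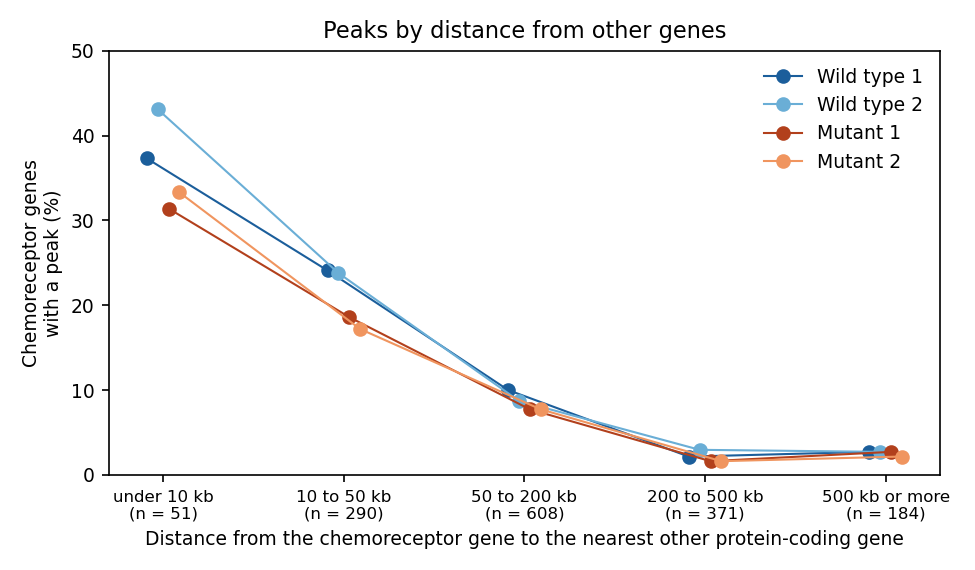
Share of receptor genes with a called peak (y axis, percent) by distance to the nearest other protein-coding gene (x axis, n genes per bin), 1 line per library. All 4 lines fall from above 31% under 10 kb to below 3% at 500 kb or more.

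Some arrays had no region at any of their genes. Joining receptor genes less than 300 kb apart gave 94 clusters, 37 of them with 10 or more genes, and 9 of these 37, with 290 genes, had no region within 5 kb of a receptor gene in any library. Between their genes these 9 arrays held 1 to 9 regions each. The largest of the 9 was the Vmn1r91 to Vmn1r183 array on chromosome 7, with 86 genes over 3955 kb, which held 9 such regions, 3 of them called in all 4 libraries. The largest array of all, Olfr987 to Olfr1274 on chromosome 2, had a region at 8 of 222 genes (3.6%). Of the 37 clusters, the Olfr30 to Olfr311 cluster on chromosome 11 had the highest share, 15 of 21 genes (71.4%). Among smaller clusters of 3 or more genes, all 3 genes from Olfr222 to Olfr225 and from Olfr372 to Olfr374 had a region, as did 6 of 7 from Olfr1513 to Olfr1507 on chromosome 14 and 5 of 6 from Olfr70 to Olfr155.

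**Figure D4:**
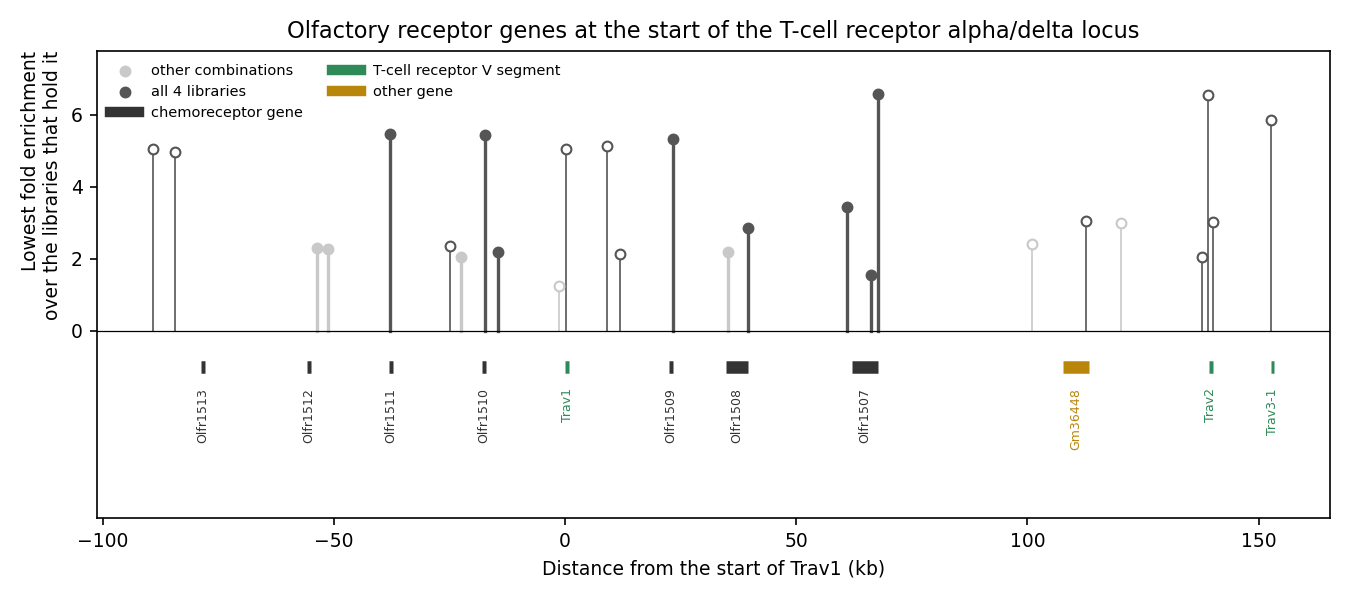
Map of the Olfr1513 to Olfr1507 genes at the start of the T-cell receptor alpha/delta locus (x axis, kb from the start of Trav1). Each stem is a merged region, its height is the lowest fold among the libraries that called it (y axis), filled points are receptor regions and open points are regions outside their windows, and dark stems mark regions called in all 4 libraries.

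The chromosome 14 genes sit at the edge of the T-cell receptor alpha/delta locus, which rearranges in thymocytes. Within 500 kb of that locus lie 9 receptor genes, 3 of them inside it, and 7 had a total of 13 regions, 8 called in all 4 libraries. None was called in both libraries of a genotype and neither of the other, and 3 were called in a single wild-type library (Olfr221, Olfr1512 and Olfr1508). The strongest, at the end of Olfr1507 (chr14:52495241-52496227), had 7.6 and 7.27 in wild type and 6.58 and 6.72 in the mutant. The promoter region of Olfr1511 (chr14:52389409-52390817) was next, with a lowest fold of 5.46 in mutant 1. The third, at Olfr1510 (chr14:52410192-52410889), had 6.53 and 6.41 against 5.44 and 6.02. As the map of the alpha/delta locus shows, Olfr1509, Olfr1508 and Olfr1507 lie between Trav1 and Trav2, variable segments of the receptor, and open regions outside the receptor windows lie at those segments too.

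Other immune and globin loci gave lower shares. Within 500 kb of the beta-globin cluster, 12 of 49 genes (24.5%) had 16 regions, 13 called in all 4 libraries, and the third by lowest fold, at Olfr649, had 7.41 and 7.64 in wild type and 7.25 and 7.38 in the mutant. In and around the MHC class I region, 4 of 36 genes (11.1%) had 6 regions. The strongest there were a pair at Olfr90, with 5.29 and 5.25 against 4.19 and 4.89 (chr17:37083036-37083649) and with 5.6 and 5.98 against 3.36 and 3.78 (chr17:37084639-37084895), and 1 at Olfr94 (chr17:37196815-37197730), with 5.81 and 5.14 against 3.94 and 4.15. The Olfr94 region also lies at Ubd, a gene outside the receptor families. Beside the T-cell receptor beta locus, 1 of 6 genes, Tas2r138, had a region.

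The study compared the genotypes of NMe. Wild type 1 held 244 of the receptor regions, wild type 2 held 218, mutant 1 held 171 and mutant 2 held 170. The means were 231 ± 18.4 and 170.5 ± 0.707 (SD, n = 2), a difference of −60.5 (exact two-sided permutation p = 0.333, the smallest that 2 against 2 allows, adjusted 0.417). The mutant lists were shorter throughout: receptor windows held 0.152% and 0.146% of all autosomal peaks in wild type and 0.145% and 0.149% in the mutant, shares that overlap (exact permutation p = 0.667, adjusted 0.667). Genes with a peak numbered 163 and 160 in wild type and 128 and 124 in the mutant (exact permutation p = 0.333, adjusted 0.417). A further setting kept the same number of peaks in each list, the most significant by q value. It left the shortest list, mutant 2, whole and removed the least significant peaks of the others. The difference in regions was then 7.5, higher in the mutant, and the difference in genes moved from −35.5 to −1.5 (exact permutation p = 1). The part of list length and peak construction in these counts cannot be told apart from genotype.

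In wild type alone, with a peak in each wild-type list and neither mutant list, were 32 of the 284 regions (11.3%), beside 11.3% of all autosomal regions and 10.9% of those at other genes. They were narrow, 76 to 625 bp with a median of 166.5 bp, and weak, the lower fold of the pair running from 2.04 to 4.21. Olfr1382 (chr11:49536738-49536821, 84 bp) was the strongest, with 4.77 and 4.21. Olfr1441 (chr19:12421817-12421892, 76 bp) had 3.82 and 3.78, and Olfr1028 (chr2:85953372-85953566) had 3.74 and 3.6. The next by the lower fold were at Olfr1532-ps1, whose symbol names a pseudogene but which the reference lists as protein-coding, Olfr713, Olfr70 with Olfr71, Olfr285 and Olfr287. The nearest mutant peak lay 585 to 121573 bp away, and within 1 kb for 4 of the 32. The shortest peak of the mutant lists was 73 and 87 bp, and 3 of the 32 were narrower than the latter.

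In the mutant alone, with a peak in each mutant list and neither wild-type list, were 7 regions (2.46%), against 1.03% of all autosomal regions and 1.02% of those at other genes. Of the regions held by both mutant libraries, that is 7 of 156 (4.49%, interval 1.82% to 9.03%), against 1.73% of 104472 elsewhere. Neighbouring regions are not independent, and the interval covers counting error only. All 7 were at Olfr genes, which held 232 of the 284 receptor regions. On chromosome 11, which held 57 of the 284, were 6 of the 7. The Olfr30 to Olfr311 cluster, picked after its values were seen, held 5 of them. Outside that cluster, 2 of 251 receptor regions (0.797%) were called in the mutant alone. The strongest of the 7, at Olfr318 (chr11:58722484-58722970), had fold values of 3.61 and 3.28. Those at Olfr328 (chr11:58554737-58555096), Olfr225 (chr11:59614240-59614379), Olfr315 (chr11:58774875-58775253), Olfr324 (chr11:58602943-58603362) and Olfr311 (chr11:58839894-58840208) were weaker, the lower fold of the pair running from 1.7 to 2.32. The last was at Olfr524 on chromosome 7, with 1.5 and 1.87, and it lies 154 bp from Cd163l1, a gene outside the receptor families. The nearest wild-type peak was 619 to 17458 bp away.

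**Figure D5:**
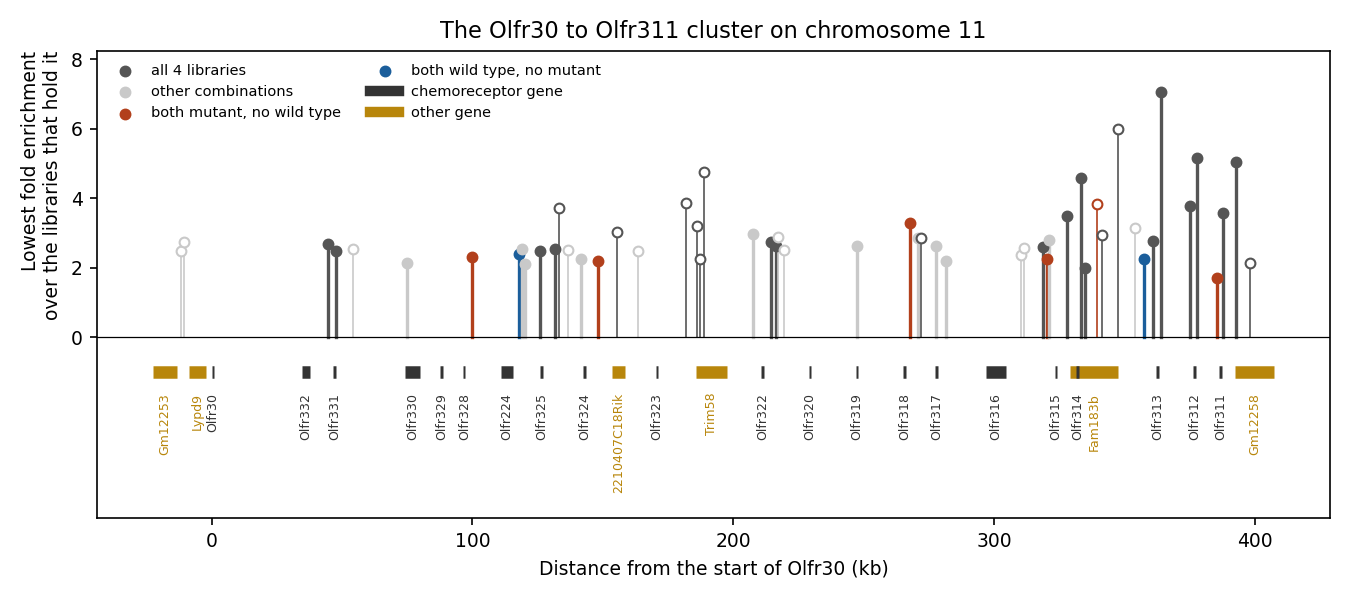
Map of the Olfr30 to Olfr311 cluster on chromosome 11 (x axis, kb from the start of Olfr30). Stems, fold (y axis), filled and open points are as in the map of the alpha/delta locus, with red stems for regions held by both mutant libraries alone and blue for both wild-type libraries alone. The cluster holds 5 filled red stems, the strongest at Olfr318.

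The chromosome 11 cluster was looked at after its values were seen. It spans 387.1 kb from Olfr30 to Olfr311 and held 33 of the 284 regions (11.6%), 16 of them called in all 4 libraries, 2 in wild type alone and 5 in the mutant alone. The libraries held 23 and 21 of the 33 in wild type and 24 and 25 in the mutant. Elsewhere they held 221 and 197 against 147 and 145 of 251 receptor regions. The mutant lists thus held as many regions as the wild-type lists in this cluster, while they held fewer elsewhere. No test was made, since the cluster was chosen by these values. Over all 51 regions that meet the cluster, inside or outside receptor windows, 6 (11.8%) were called in the mutant alone, against 121 of 13000 (0.931%) on the whole chromosome. Beside Olfr325, a region at chr11:58586166-58586628 had 2.53 and 2.93 in wild type and 5.03 and 5.35 in the mutant. One at Olfr315 (chr11:58773131-58773751) had 3.24 and 2.61 against 4.97 and 5.06. At the far end of the cluster, Olfr313 (chr11:58818315-58818970) had 10.3 and 9.36 in wild type and 7.16 and 7.05 in the mutant. These examples were picked after their values were seen. Most of the 16 regions called in all 4 libraries did not have both mutant values above both wild-type values. The scale of a fold is set within each list, so these values do not measure a difference between the genotypes.

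Near-identical genes can lose reads that align to several places. Of the 1302 receptor promoters, 111 (8.53%) share 50% or more of their 50-base words with the promoter of another gene, and these are 16 Olfr, 71 Vmn1r and 24 Vmn2r genes. Of the 111, 8 (7.21%) had a region, against 149 of the 1191 others (12.5%). The families differed in direction: 1 of 71 such Vmn1r genes and 5 of the 135 others had a region, 2 of 24 such Vmn2r genes and 14 of the 92 others, but 5 of 16 such Olfr genes (31.2%) and 122 of the 922 others (13.2%). How the authors treated reads with several matches is not given in the sources used here, so the part of sequence copies in the low counts was not tested.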

How the data were processed

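Each of the 4 DN3 libraries has its own broad peak list, so the authors called peaks for each library by itself. The submitters' processing notes name cutadapt (1.16), the aligner Bowtie2 (2.3.3.1), SAMtools (1.7), the peak caller MACS2 (2.1.1) and genome build mm10 (GRCm38). How these were set, how reads were filtered and whether reads were shifted for the transposase is not given in the sources used here. Each deposited peak carries a score, which equals 10 times its −log10 q, truncated, for 99.9944% of peaks. The fold enrichment, also deposited, is a ratio of pileup to local background within the library. The deposited −log10 values of p and q refer to the peak's own library, and the lowest −log10 q was 1 to 1.02. The lists differ in construction, with shortest peaks of 64 and 65 bp (wild type) and 73 and 87 bp (mutant).

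Peaks of the 19 autosomes were merged, and a library held a region when a peak of it overlapped by 1 bp. Gene positions came from a RefSeq table of GRCm38.p6, the build of the peaks. Of 1515 protein-coding receptor genes, 7 on the X chromosome and 4 on unplaced or patch scaffolds were left out. Strand came from the RefSeq promoter table. Exons and untranslated regions were not annotated. Genotypes were compared over libraries with exact two-sided permutation tests of 2 against 2, and receptor windows with other genes by exact sign-flip tests over 4 libraries. No test was made over regions or genes, and shares have exact 95% Clopper-Pearson intervals. The code was tested on simulated lists. Named regions were the 12 strongest of all 4 libraries, the 8 strongest of each genotype alone (7 existed for the mutant), the 5 widest, every Taar and Tas2r region of all 4 libraries, the 3 strongest near each of 4 loci, and the 3 genes per family with most regions. Examples of fold values in the chromosome 11 cluster were picked outside these rules, after the values were seen. The genes, lists, tests and alternatives were chosen with earlier results of these data known. Alternatives changed the window, the peak filter, the peak construction, the overlap, the treatment of shared and narrow regions, and the libraries used. Labels do not say that replicate numbers pair libraries, and deviations of same-numbered libraries correlated at −0.07 over 100024 regions. Python 3.11.15, numpy 2.4.6, pandas 2.3.3, scipy 1.17.1 and matplotlib 3.10.9 were used.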

Additional observations from a re-analysis of the deposited data

Results flagged for a closer look

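Some regions lay outside the genes searched. Receptor pseudogenes, which the rule leaves out, had 110 regions that meet no protein-coding receptor gene, at 70 of 586 pseudogenes (11.9%). That share is close to the 12.2% of protein-coding receptor genes with a region. Of the 110, 48 were called in all 4 libraries, 11 in both wild-type libraries alone and 1 in both mutant libraries alone. Over all autosomal regions these classes made up 56.7%, 11.3% and 1.03%. The strongest by lowest fold was at Vmn2r-ps91 (chr8:71881468-71882426), with 11.8 and 11.9 in the wild-type lists and 9.17 and 9.19 in the mutant lists. Vmn1r-ps149 on chromosome 17 had 10.3 and 8.85 against 8.66 and 8.69, and Vmn2r-ps15 on chromosome 4 had 8.46 and 8.13 against 8.91 and 8.71. Of the 7 receptor genes on the X chromosome, 1 had a region.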

How the results depend on the processing

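The lower peak density of receptor windows kept its direction in 14 of 14 alternatives, with log2 ratios from −3.21 to −2.97. The difference in genes with a peak, mutant minus wild type (−35.5), stayed below 0 in 15 of 15 but shrank to −1.5 with equal numbers of peaks (exact permutation p = 1), −14.5 with gene bodies alone and −17 without regions under 150 bp, and was −64 with 10 kb windows. The number of regions in all 4 libraries (143) was 45 with gene bodies alone, 68 with 1 kb windows, 231 with 10 kb windows, 82 with peaks of fold 3 or more and 91 with −log10 q of 5 or more, each of which changes the genes' windows or removes peaks. In the same order, regions of wild type alone (32) numbered 8, 16, 50, 17 and 12. They numbered 20 with all lists rebuilt to 1 minimum length and gap, 12 with equal numbers of peaks and 18 without regions under 150 bp. Regions of the mutant alone (7) numbered 0 with gene bodies, 2 with 1 kb windows, 20 when peaks had to cover 50% of a region and 15 with equal numbers of peaks. In the chromosome 11 cluster, a count added after the data were seen, they numbered 5, and 0, 1, 5 and 6 in those settings. Leaving out 1 library at a time gave 144 to 153 regions of all remaining libraries, 41 to 77 of wild type alone and 8 to 12 of the mutant alone, where fewer libraries define each class: without wild type 2, 77 were of wild type alone, without wild type 1, 54 were of wild type alone and 12 of the mutant alone, and without mutant 2, 12 were of the mutant alone.

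The difference in regions held, mutant minus wild type (−60.5), became 7.5 with equal numbers of peaks, −21 with −log10 q of 5 or more and −104 with 10 kb windows, and ran from −73.5 to −47.5 without 1 library. That in the share of peaks, in percentage points (−0.0026), became 0.00364 with −log10 q of 5 or more, 0.00375 with fold of 3 or more, 0.00359 with the common construction, 0.00515 with equal numbers of peaks, 0.0184 without regions under 150 bp and 0.000228 without wild type 1, with a range of −0.00542 to 0.000228 over the libraries left out. The difference in genes ran from −37.5 to −33.5, the log2 density ratio from −3.11 to −3.07 and the log2 fold ratio from 0.04 to 0.07 without 1 library, and the fold ratio became −0.03 with fold of 3 or more. Beyond what each setting itself removes, the cause was not tested. With the replicate number as a block, the differences were −60.5 regions (exact sign-flip p = 0.5, the smallest 2 pairs allow), −0.0026 percentage points (p = 1) and −35.5 genes (p = 0.5). Unknown depth and 2 libraries per genotype limit what the lists can show.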
